A study of Mus musculus with 50 samples.

Results

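The collagen chain genes are the genes that encode the polypeptides of the collagens. They were taken from the deposited tables as every gene whose symbol consists of Col, a number, the letter a and a second number, and 44 of the 55385 genes listed in each table met that pattern. The level of a gene chose no member. RNA from mouse motor neurons was sequenced in 28 libraries and open chromatin in 22, to follow the transcriptome of these cells from their birth to old age and in culture. The 3 E10.5 RNA libraries came from whole cells of HB9-GFP embryos, sorted for GFP, with several embryos in a pool. All other in vivo RNA came from nuclei of Chat-Cre;SUN1-GFP mice, in which Cre made from the Chat locus switches on a tagged nuclear envelope protein in cholinergic cells, with 3 libraries for each of P4, P21 and P56 and a pair for each of E13.5, P13 and 2 years. These nuclei were pulled down from pools of several animals of both sexes, so a library is a pool and the spread between libraries is not that between single animals. Cre in this line acts in all cholinergic cells of the cord, not in motor neurons alone. The 10 in vitro libraries came from motor neurons made from an embryonic stem cell line of the same genotype, sampled before co-culture (DIV0, 2 libraries), after 7 days (DIV7, 2 libraries) and after 28 days (DIV28, 3 libraries) on astrocyte-rich glia of newborn mouse cortex, and after 28 days with 1 µM tetrodotoxin (TTX), a blocker of voltage-gated sodium channels (3 libraries). All cultures derive from 1 cell line. ATAC libraries, 2 for each age and culture condition, were made from sorted HB9-GFP cells at E10.5 and from sorted nuclei at the later ages and in culture. The library titled as DIV0 replicate 3 is used here as DIV28 replicate 3, the name its deposited table carries, and the counts that rest on it are also given without it.

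Collagens are secreted proteins in which 3 chains wind into a triple helix. Fibrillar collagens form the cables of connective tissue, network collagens such as type IV form the sheets of basement membranes, and type VI forms beaded filaments. FACIT collagens sit on the surface of fibrils, multiplexins lie in basement membranes, and transmembrane collagens stay anchored in the cell surface. In the nervous system most collagen is made by vessels, meninges and nerve sheaths, while single chains are also made by neurons, among them collagen XIX at synapses and collagen XXV on motor neurons. A purification that carries over nuclei or RNA of vessel walls or meninges therefore brings in collagen transcripts of its own. In bulk libraries fewer cells of a type and less RNA per cell cannot be told apart.

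Normalised counts below are expected counts, rounded and divided by a size factor for each library. Totals ranged from 2704682 to 21823500 counts. Summed motor neuron markers (7 genes, Chat and Isl1 among them) lay between 1562 and 4074 normalised counts in the nuclear libraries in vivo. Markers of other cell types were present, and they changed with age. The study reports some blood vessel contamination of the nuclei pulled down at E13.5 and P4. It gives a higher purity for the sorted nuclei used for ATAC. The 11 endothelial markers, all with counts at E13.5, summed to 26.0 to 56.7 at E10.5, 16118 and 30555 at E13.5, 6556 to 8901 at P4, 439 and 634 at P13, 62.9 to 125 at P21, 31.6 to 65.6 at P56 and 44.4 and 64.5 at 2 years. The 10 mural cell markers summed to 758 to 993 at E10.5, 2601 to 2753 at E13.5 and 3555 to 5286 at P4, and to 72.9 to 119 at P56. Most of the E10.5 mural sum was Notch3 alone (894, 889 and 666). Vtn and Pdgfrb held 18.3 to 63.3 there, Rgs5 2.29, 0.691 and 0.763 and Abcc9 1.53, 1.38 and 0.763. The 13 fibroblast markers summed to 1010.3 to 1053 at E13.5, 329 to 394 at P4 and 238 to 329.5 at P56. Most of the P56 sum was Postn alone (202, 273 and 224). Dcn held 8.25, 8.04 and 13.2 and Foxc1 8.25, 9.38 and 10.6 there. Endothelial markers thus stood highest at E13.5 and mural markers at P4, and both were low from P21 on. The mural sum was then below its E10.5 level, which was mostly Notch3.

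**Figure D1:**
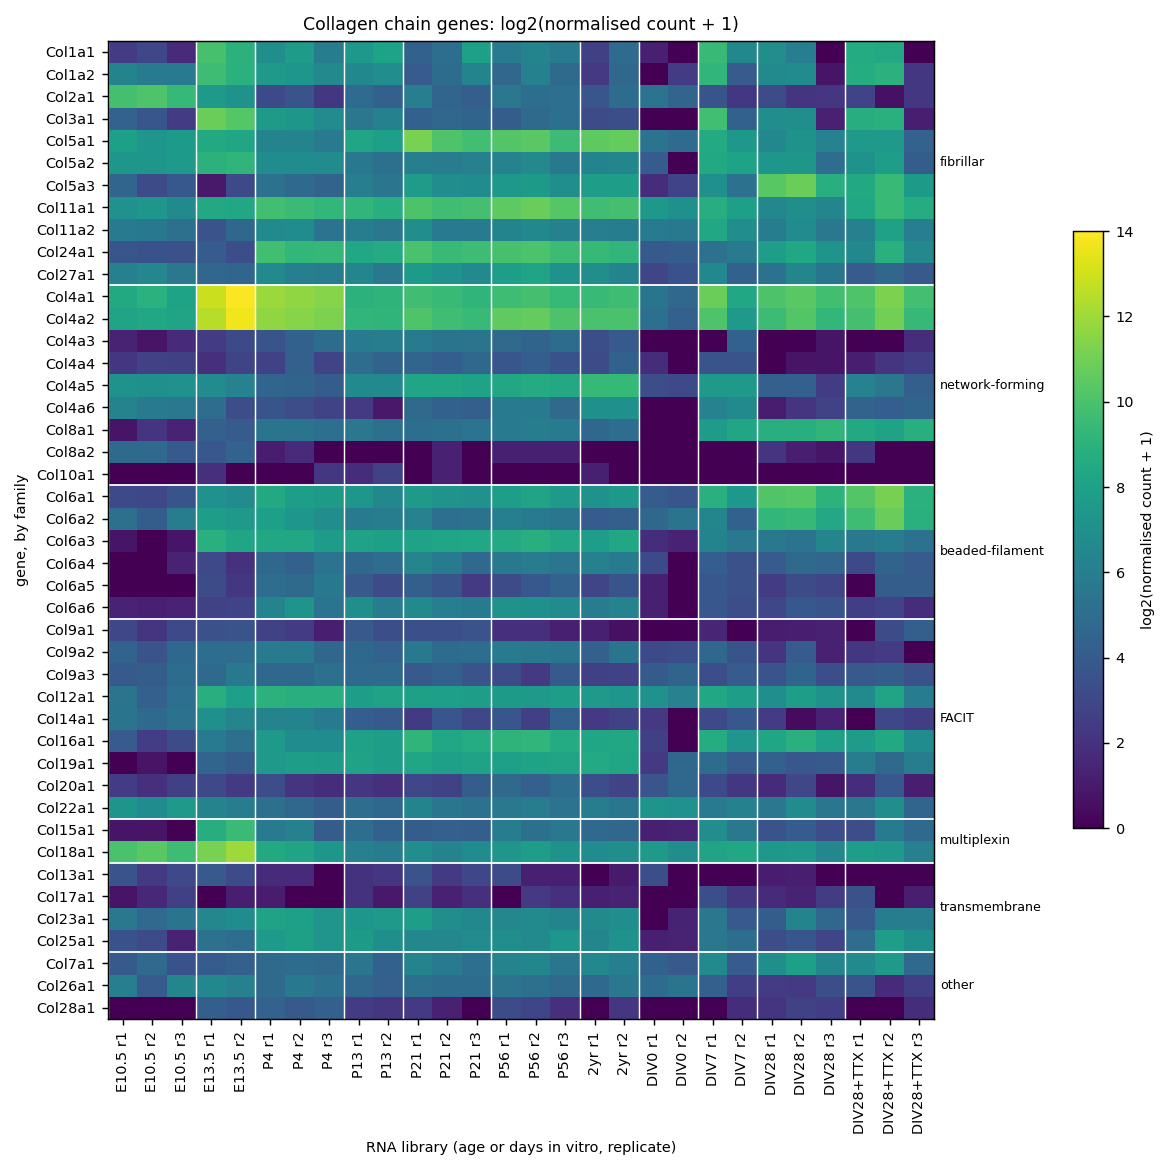
Colours give log2(normalised count + 1) of the 44 collagen chain genes (rows, by family) in the 28 RNA libraries (columns, by age or days in vitro). Col4a1 and Col4a2 are brightest at E13.5 and P4, Col5a1 brightens from P21, and Col5a3 is brightest in the DIV28 libraries.

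On the TPM scale, which divides by transcript length and so allows genes to be set side by side, the summed collagen level ran from 665 to 1219 TPM at E13.5, from 181 to 466 at P4 and from 189 to 294 at P56. Col4a1 and Col4a2 together made up 13.2% to 14.4% of that sum at E10.5, 55.8% to 73.2% at E13.5, 58.2% to 59.8% at P4 and 23.9% to 26.6% at P56. In the adult the sum was spread over more chains. The highest mean levels at P56 were 36.3 ± 8.86 TPM for Col4a2 (SD, n = 3), 32.9 ± 9.49 for Col11a1, 30.7 ± 1.36 for Col16a1, 25.4 ± 7.75 for Col4a1, 21.9 ± 6.90 for Col24a1 and 19.9 ± 7.84 for Col5a1. Neighbours in order among these 6 differed by less than the larger SD of the pair, so their order is uncertain. By normalised counts, 14 genes had their highest in vivo group mean at E13.5, 7 at P4, 8 at P56 and 7 at 2 years.

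A gene counted as changed between ages at an unadjusted p under 0.001 in edgeR's quasi-likelihood test and at least 2-fold. Of the 44 collagens, 36 passed the filter on low counts in vivo, and a gene can pass it through the age at which it is high. Between E10.5 and E13.5, 19 collagens rose and 4 fell, beside calls for 44.1% of all genes, 24.6% upward and 19.4% downward, of the 15030 tested. Their median log2 fold change was 1.62, against 0.13 over all genes. This step also passes from whole sorted cells to pulled-down nuclei, from one mouse line to another and from few to many vessel markers, and these cannot be told apart from age. From E13.5 to P4, 15 rose and 10 fell (42.7% of all genes, 23.8% upward and 19.0% downward), and without E13.5 replicate 2, the library with more vessel markers, 7 rose and 9 fell. From P4 to P13, 3 rose and 6 fell (13.3% of all genes, 5.80% upward and 7.54% downward), and without P13 replicate 2, 2 and 3. From P13 to P21, 4 rose and none fell (7.30% of all genes, 1.50% upward and 5.80% downward), and 2 rose without P13 replicate 1 or without P21 replicate 1. None was called from P21 to P56 (0.173% of all genes, 0.0466% upward and 0.126% downward), and DESeq2 called none either. There edgeR gave 10 collagens an unadjusted p under 0.05. The share of all genes at that looser limit is not given here, so this number has no background beside it. Col4a6 alone was called from P56 to 2 years (0.685% of all genes, 0.499% upward and 0.186% downward). Median-of-ratios scaling moved the median of all genes by 0.11 from E10.5 to E13.5 and by -0.11 from E13.5 to P4 on the log2 scale, and by less at every other step.

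The chains of vessel basement membrane came first. Col4a1 and Col4a2 encode the common pair of type IV chains that every basement membrane contains. Col4a1 held 368, 495 and 281 normalised counts in the E10.5 libraries, 7642 and 15594 at E13.5, 3838, 3294 and 2763 at P4, 518 and 554 at P13, 821, 690.4 and 573 at P21, 816, 922 and 653 at P56 and 725 and 806 at 2 years. E13.5 and P4 stood above every other age without overlap. Col4a1 rose from E10.5 to E13.5 (log2 fold change 4.78 ± 0.29 (SE), adjusted p = 2.6e-10), fell from E13.5 to P4 (-1.67 ± 0.26, adjusted p = 2.4e-05) and fell again from P4 to P13 (-2.53 ± 0.30, adjusted p = 7.3e-06). Col4a2 moved with it, though its fall from E13.5 to P4 lost its call without E13.5 replicate 2 (log2 fold change -0.85). It went from 5762 and 13112 at E13.5 to 593 and 579 at P13. At P56 it was at 1504, 1646 and 1090.0, all above P13, and no neighbouring ages after P13 differed by the rule. Its fall from P4 to P56 (-1.01 ± 0.24) lost its call without P4 replicate 1, P4 replicate 2, P56 replicate 1 and P56 replicate 3 in turn (log2 fold change -1.06 to -0.86), as well as in DESeq2.

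The 2 genes lie head to head on chromosome 8, with starts 21 bp apart, so that 1 stretch of DNA serves as the promoter of both. It is shown because it carried an ATAC peak in every one of the 22 libraries. These include ages with high and with low endothelial marker sums in the RNA libraries, whose vessel content need not be that of the ATAC libraries. The RefSeq promoter window of Col4a2 (GRCm38, chr8:11312555-11312854, plus strand, 250 bases before to 50 after the start) holds 33 CpG dinucleotides, against a median of 7 over 32851 windows of the same length. Capitals mark the core letters, on either strand, of the TATA box (TATAAA, in 13.6% of all windows), the CCAAT box (CCAAT, in 37.4%) and the GC box (GGGCGG, in 35.7%).
Col4a2: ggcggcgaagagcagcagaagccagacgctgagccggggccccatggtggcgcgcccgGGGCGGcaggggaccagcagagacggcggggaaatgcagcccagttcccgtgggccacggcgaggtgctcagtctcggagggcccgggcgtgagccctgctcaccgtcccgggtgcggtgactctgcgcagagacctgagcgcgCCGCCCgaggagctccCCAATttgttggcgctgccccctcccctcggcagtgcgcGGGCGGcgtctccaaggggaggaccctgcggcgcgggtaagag

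The multiplexins Col15a1 and Col18a1, whose proteins lie in vessel basement membranes, followed the same early course. Col15a1 held 0.764, 0.691 and 0 normalised counts at E10.5, 422 and 739 at E13.5 and 56.1, 66.6 and 16.2 at P4, and 16.8 to 60.5 in every P21 and P56 library. The 2 counts at E10.5 give a ratio of E13.5 to E10.5 of 1298 (95% exact counting interval 359 to 10724). Col18a1 was already at 1007, 1369 and 804 at E10.5, reached 2313 and 3919 at E13.5, and fell to 361, 290.3 and 166 at P4 (log2 fold change -3.37 ± 0.30) and to 66.4 and 57.6 at P13. Its rise from E10.5 to E13.5 lost its call without E13.5 replicate 2 (log2 fold change 0.97).

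The 2 E13.5 libraries differed in cell content, which sets the chains apart without a change of age. From replicate 1 to replicate 2 the endothelial sum was 1.90 times as high, the fibroblast sum 1.04 times and the motor neuron sum 0.536 times. Members of the fibroblast list moved in opposite directions. Foxc1 went from 340 to 562 normalised counts. Postn went from 316 to 232.5, Lum from 79.4 to 39.0, Dcn from 61.0 to 39.9 and Fmod from 34.2 to 8.58. Prrx1 (73.9 and 74.6) and Ogn (14.8 and 14.6) were level. Col4a2 was 2.28 times as high, Col4a1 2.04, Col15a1 1.75 and Col18a1 1.69 times. No other collagen with at least 100 normalised counts in either library exceeded a ratio of 1.24. The ratio was 0.688 for Col3a1, 0.611 for Col1a2, 0.519 for Col1a1, 0.518 for Col12a1 and 0.618 for Col6a3. It was 1.15 for Col5a2, 0.817 for Col5a1 and 0.691 for Col4a5. Col4a1, Col4a2, Col15a1 and Col18a1 were thus higher in the library with more endothelial markers. Col4a5, Col1a1, Col1a2, Col3a1, Col12a1 and Col6a3 were lower there, as were the motor neuron markers and the fibroblast markers Postn, Lum, Dcn and Fmod. With 1 library on each side these ratios have no test.

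Interstitial chains were next. Col1a1 and Col1a2 build type I collagen, the main fibre of connective tissue, and Col3a1 builds type III, which accompanies it in vessel walls and meninges. Col3a1 held 19.9, 12.4 and 4.58 normalised counts at E10.5, 1863 and 1281 at E13.5, 199.7, 168 and 106 at P4, 45.8 and 70.6 at P13, 19.6, 23.9 and 22.1 at P21, 16.5, 28.1 and 33.0 at P56 and 8.07 and 9.37 at 2 years. It rose to E13.5 (log2 fold change 6.83 ± 0.37 (SE), adjusted p = 7.7e-11) and fell by P4 (-3.16 ± 0.30, adjusted p = 7.8e-08). The fall went on from P4 to P56 (-2.61 ± 0.34, adjusted p = 1e-05), a call kept in each of the 6 fits that left out 1 library.

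Col1a1 went from 4.58, 6.91 and 2.29 at E10.5 to 979 and 508 at E13.5 (log2 fold change 7.13 ± 0.88 (SE), adjusted p = 1.5e-06). Afterwards its libraries scattered, with 121, 214 and 58.6 at P4, 172 and 276 at P13, 19.6, 32.3 and 243 at P21 and 53.6, 79.0 and 56.7 at P56. P21 replicate 3 alone carried the high P21 value, and its rise from E10.5 to P21 lost its call without E10.5 replicate 3 and P21 replicate 3 in turn (log2 fold change 2.45 to 4.09). Col1a2 held 806 and 492 at E13.5 and 23.4, 69.7 and 27.7 at P56. Col5a2, a type V chain that joins type I fibrils, rose to 501 and 577 at E13.5 and fell to 109.9, 110.2 and 106 at P4 and 49.4 and 34.4 at P13 (log2 fold changes 1.48, -2.16 and -1.25). The last step lost its call without P13 replicate 2 (log2 fold change -1.03). The fibril-bound FACIT chain Col14a1 fell from 75.2, 79.7 and 53.7 at P4 to 12.4, 5.36 and 18.5 at P56 (log2 fold change -2.52 ± 0.39 (SE), adjusted p = 5.8e-05).

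The Col3a1 promoter is shown for contrast with that of Col4a2. No ATAC library had a peak within 500 bp of the start of Col3a1 or of Col1a1 at any age. The window of Col3a1 (chr1:45311288-45311587, plus strand) holds 0 CpG dinucleotides and the letters TATAAA, in capitals.
Col3a1: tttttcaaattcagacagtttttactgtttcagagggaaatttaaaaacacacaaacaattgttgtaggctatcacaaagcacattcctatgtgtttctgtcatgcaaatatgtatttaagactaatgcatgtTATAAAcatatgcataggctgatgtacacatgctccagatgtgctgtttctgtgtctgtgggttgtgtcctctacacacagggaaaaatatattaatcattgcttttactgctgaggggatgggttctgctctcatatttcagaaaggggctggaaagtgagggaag

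Type VI chains did not share 1 course. Col6a3 was almost absent at E10.5 (0.764, 0 and 0.763 normalised counts), stood at 479 and 296 at E13.5 and then stayed between 211 and 442 in every later library. Its P21 level was 613 (95% exact counting interval 169 to 5071) times the E10.5 level, from 2 counts at E10.5. Col6a1 rose from 7.64, 6.91 and 11.4 to 134 and 106 and again to 362, 232 and 195 at P4, and was at 224, 289 and 193 at P56. The second of these rises lost its call without E13.5 replicate 1, E13.5 replicate 2 and P4 replicate 1 in turn (log2 fold change 0.98 to 1.46). Col6a2 followed to E13.5 (233 and 190.0) but fell from 239, 165 and 119.8 at P4 to 66.0, 50.9 and 44.9 at P56 (log2 fold change -1.70 ± 0.36 (SE), adjusted p = 0.0012), a call that was lost without P4 replicate 1, P56 replicate 2 and P56 replicate 3 in turn (log2 fold change -1.67 to -1.40). Over the interval in which Col6a2 fell, Col6a1 (-0.17 ± 0.25) and Col6a3 (0.40 ± 0.22) were not called.

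Col6a4, Col6a5 and Col6a6, the later-found type VI chains, were low at E10.5 and E13.5. Col6a6 rose from 5.54 and 6.01 at E13.5 to 77.4, 153 and 39.9 at P4 (log2 fold change 4.08 ± 0.55 (SE), adjusted p = 4.9e-06) and held 139, 127 and 107 at P56. Col6a5 had no count in any E10.5 library, 8.31 and 3.86 at E13.5 and 31.4, 27.3 and 49.9 at P4, so that its P21 level of 18.2, 11.2 and 4.14 was at least 15.2 times that at E10.5 against a floor of 3 counts over the group. Col6a4 rose from 7.39 and 3.003 to 25.8, 18.6 and 38.7 between E13.5 and P4, held 81.1, 53.4 and 26.2 at P21, and at the first of these steps lost its call without E13.5 replicate 2 and P4 replicate 3 in turn (log2 fold change 2.04 to 2.38).

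From P4 to P56, 8 collagens rose while all 11 endothelial markers and 6 of the 9 mural markers tested fell, and 7 collagens fell (calls for 17.8% of all genes, 6.01% upward and 11.7% downward). The risers were Col4a5, Col5a1, Col5a3, Col4a6, Col2a1, Col16a1, Col27a1 and Col11a1. Over the same interval 0 of 7 motor neuron markers were called. Of the 13 fibroblast markers 6 were tested, 2 fell and none was called higher. Postn, the main part of the fibroblast sum at P56, held 126, 178 and 115 at P4 and 202, 273 and 224 at P56. It was thus higher in every P56 library, though short of a call. The oligodendrocyte lineage sum was 2204 to 2820.2 at P4, 11981 and 11922 at P13, 6515 to 8838 at P21 and 2333 to 3531 at P56, with 8 of 10 genes called higher from P4 to P13 and 1 of 10 from P4 to P56. The Schwann cell sum was 8.73 to 51.3 at P4, 4.22 to 29.0 at P21 and 50.9 to 109.8 at P56, with none of the 3 genes tested called. The part of these cells in the rises was not tested. The 7 that fell were Col3a1, Col14a1, Col4a1, Col6a2, Col23a1, Col12a1 and Col4a2. The median over the 36 tested was 0.08, against -0.04 over all genes.

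**Figure D2:**
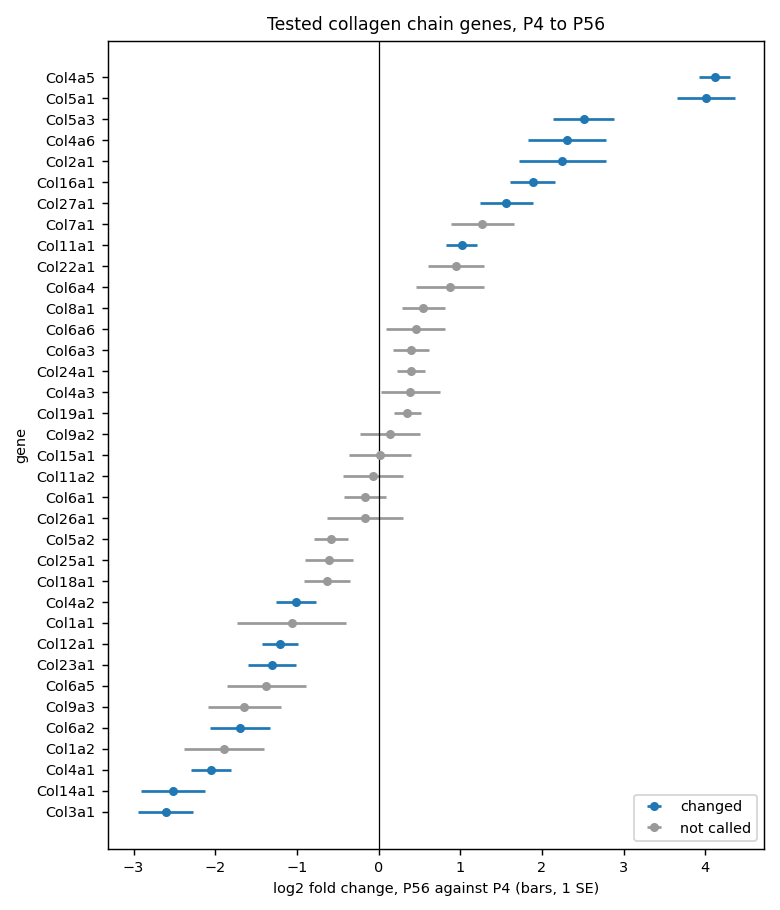
Each point is the log2 fold change of 1 of the 36 tested collagens between P4 and P56 (x axis, bars 1 SE), in blue where the gene was called. Col4a5 (4.12) and Col5a1 (4.01) lead the 8 risers, and Col3a1 (-2.61) is the lowest of the 7 that fell.

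Col4a5 encodes a type IV chain that pairs with Col4a3 and Col4a4 in kidney and with Col4a6 in muscle and skin. Its libraries held 147, 129 and 135 at E10.5, 106 and 73.4 at E13.5, 22.4, 21.8 and 16.2 at P4, 104 and 104 at P13, 310.5, 312 and 279 at P21, 318, 391 and 352 at P56 and 663 and 657 at 2 years. The groups from P4 to P21 did not overlap and rose at each step. The log2 fold changes were 2.45 ± 0.20 from P4 to P13 (adjusted p = 3.9e-07), 1.44 ± 0.18 from P13 to P21 (adjusted p = 2.6e-05) and 4.12 ± 0.19 from P4 to P56 (adjusted p = 1.3e-10). It had first fallen from E13.5 to P4 (-1.97), and P4 was its lowest age.

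Col4a6 lies next to Col4a5 in the opposite orientation, with starts 1309 bp apart. It held 74.8, 54.6 and 47.3 at E10.5, 11.2, 8.73 and 6.24 at P4, 4.12 and 0.928 at P13, 28.0, 19.7 and 17.96 at P21, 52.3, 52.2 and 27.7 at P56 and 130.4 and 131 at 2 years. It rose from P13 to P21 (2.78 ± 0.64), a call that was lost without P13 replicate 1, P13 replicate 2 and P21 replicate 1 in turn (log2 fold change 2.27 to 4.34), and from P56 to 2 years (log2 fold change 1.64 ± 0.39 (SE), adjusted p = 0.07). The later call met the unadjusted limit but not an adjusted p of 0.05, and it was lost in each of the 5 fits that left out 1 P56 or 2-year library. Col4a5 was at 0.97 ± 0.16 over that interval, short of the 2-fold limit. The rise of Col4a6 from P4 to P56 (log2 fold change 2.31) lost its call without P4 replicate 3 (log2 fold change 2.13).

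Col5a1 and Col5a3 encode type V chains, which set the diameter of fibrils and occur in nerve sheaths. Col5a1 held 239.8, 160.4 and 198 at E10.5, 368 and 301 at E13.5, 79.7, 77.5 and 51.2 at P4, 306 and 239.5 at P13, 2336, 1138 and 863 at P21, 1215, 1392 and 768 at P56 and 1451 and 1652 at 2 years. It fell from E13.5 to P4 (-2.11 ± 0.36), rose from P4 to P13 (2.06 ± 0.36, adjusted p = 0.00033) and rose again from P13 to P21 (2.31 ± 0.36, adjusted p = 0.00025). Both rises were kept in each fit that left out 1 library. P21 replicate 1 stood well above the other P21 libraries. Reads of Col5a1 and of the overlapping 2810430I11Rik and Gm13372 cannot be told apart over 2.5% of its exonic bases, because no strand setting is stated for the counting.

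Col5a3 was low before birth, with 22.9, 8.30 and 13.7 at E10.5 and 0.923 and 7.72 at E13.5. It held 38.1, 26.2 and 21.2 at P4, 62.8 and 43.6 at P13, 208, 117 and 112 at P21, 175, 196 and 123 at P56 and 218 and 217 at 2 years. Every library from P21 on was above every earlier one. It rose from E13.5 to P4 (log2 fold change 2.56 ± 0.56 (SE), adjusted p = 0.00062), a call that was lost without E13.5 replicate 1 and P4 replicate 1 in turn (log2 fold change 2.03 to 2.29), and from P4 to P56 (log2 fold change 2.51 ± 0.38 (SE), adjusted p = 4.3e-05), a call kept in each of 6 such fits. The steps between P4 and P13 (1.00 ± 0.42) and between P13 and P21 (1.34 ± 0.39, adjusted p = 0.019) were not called. From E10.5 to P21 Col5a3 rose as well (log2 fold change 3.28 ± 0.39 (SE), adjusted p = 3.8e-07). The endothelial sum was 26.0 to 56.7 at E10.5 and 62.9 to 125 at P21. The mural sum was 758 to 993 and 61.5 to 111, and the fibroblast sum 19.1 to 61.85 and 185 to 213, in the same order. This interval also passes from whole HB9-GFP cells to Chat-Cre nuclei. Preparation, mouse line, cell content and age cannot be told apart here.

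The promoter window of Col5a3 (chr9:20815018-20815317, minus strand) is shown because Col5a3 rose with age both in vivo and in culture. It holds 20 CpG dinucleotides, CCAAT and GC boxes, and 12 of 22 ATAC libraries had a peak at this start, both at E10.5, E13.5 and DIV28, 1 at P4, P13, P21, DIV0, DIV7 and with TTX, and none at P56 and 2 years.
Col5a3: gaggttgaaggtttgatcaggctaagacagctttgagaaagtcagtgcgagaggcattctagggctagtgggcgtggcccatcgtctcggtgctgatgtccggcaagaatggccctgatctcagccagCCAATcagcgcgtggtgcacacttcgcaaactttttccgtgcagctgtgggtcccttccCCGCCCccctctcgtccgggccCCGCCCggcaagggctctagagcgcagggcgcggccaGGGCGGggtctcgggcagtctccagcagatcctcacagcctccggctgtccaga

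Other fibrillar chains rose with maturation. Col24a1, a minor fibrillar chain, held 12.2, 10.4 and 9.92 at E10.5 and went from 15.7 and 9.44 at E13.5 to 857, 611 and 649 at P4 (log2 fold change 6.04 ± 0.28 (SE), adjusted p = 1.2e-10), the largest log2 rise of any collagen at that step. It was at 337 and 389.9 at P13 and rose to 1016, 699 and 805 at P21 (1.13 ± 0.20), which lost its call without P13 replicate 1 and P21 replicate 1 in turn (log2 fold change 0.96 to 1.04). Col11a1, which nucleates the fibrils of cartilage, held 354 and 318 at E13.5, 872, 744 and 606 at P4 and 1448, 1783 and 1283 at P56. Its change from P4 to P56 was 1.02 ± 0.19, close to the 2-fold limit, and was not called without P4 replicate 3 and P56 replicate 2 in turn (log2 fold change 0.87 to 0.89). Col27a1 rose from 24.0 and 22.7 at E13.5 to 101, 64.4 and 57.4 at P4 and to 228, 288 and 146 at P56. Its rise from P4 to P56 lost its call without P4 replicate 2, P4 replicate 3 and P56 replicate 2 in turn (log2 fold change 1.32 to 1.47), and that from E13.5 to P4 lost its call without E13.5 replicate 1, E13.5 replicate 2 and P4 replicate 1 in turn (log2 fold change 1.53 to 1.86).

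Col2a1, the main fibrillar chain of cartilage, took the opposite course before birth. It fell from 935, 1141 and 672 at E10.5 to 188 and 137 at E13.5 (log2 fold change -2.65 ± 0.36 (SE), adjusted p = 5.1e-06) and to 7.85, 10.9 and 3.74 at P4 (-4.23 ± 0.47). The rise called from P4 to P56, to 45.4, 32.1 and 33.0, was lost in 5 of 6 fits that left out 1 library. Of the 8 chondrocyte markers, Acan was the one with counts above 10 in every P56 library, and Matn1 and Snorc had none there.

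**Figure D3:**
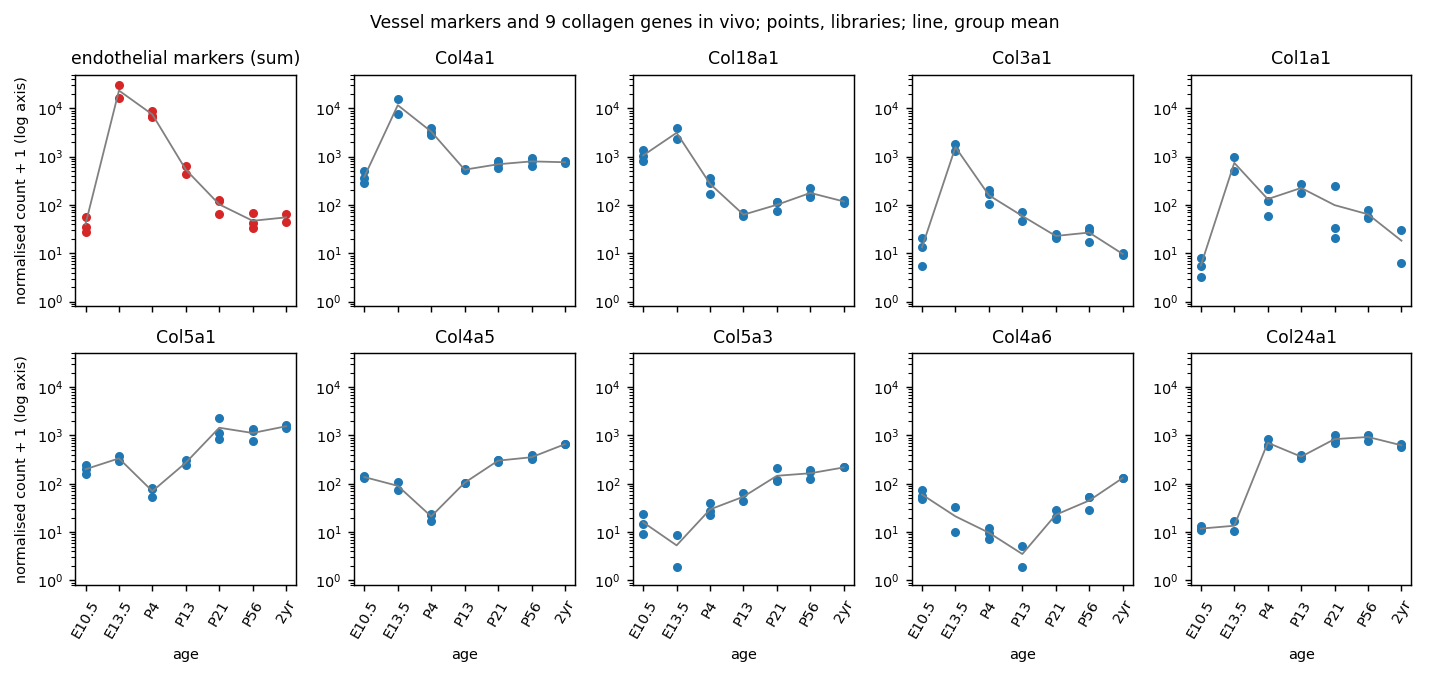
Points give normalised counts plus 1 (log axis) in each in vivo library by age, with a line through the group means, for the summed endothelial markers (red) and 9 collagens (blue). Col4a1, Col18a1 and Col3a1 peak at E13.5 with the endothelial sum, while Col5a1, Col4a5, Col5a3 and Col4a6 rise after P4, when that sum falls from between 6556 and 8901 to between 31.6 and 65.6.

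Among the FACIT chains, Col19a1 was the clearest. Its libraries held 0, 0.691 and 0 at E10.5, 23.1 and 16.7 at E13.5, 192, 225 and 207 at P4, 310.5, 239 and 265 at P21, 235, 277 and 285 at P56 and 371 and 315 at 2 years. It rose from E13.5 to P4 (log2 fold change 3.57 ± 0.23 (SE), adjusted p = 1.5e-09) and was not called between later neighbouring ages. From the single count at E10.5, its P21 level was 1105 (95% exact counting interval 198 to 43706) times as high. Col16a1, a FACIT chain of many tissues, rose at each of 3 intervals, from 15.3, 4.84 and 8.39 at E10.5 to 53.6 and 34.8 at E13.5, 191, 111 and 111 at P4 and 541, 603 and 389 at P56 (P4 to P56, log2 fold change 1.89 ± 0.28 (SE), adjusted p = 3.5e-05). The step from E13.5 to P4 lost its call without E13.5 replicate 2 (log2 fold change 1.52), that from E10.5 to E13.5 lost its call without E13.5 replicate 1 (log2 fold change 1.72), and that from P4 to P56 was kept in every such fit. Col12a1 had its highest mean at P4, with 503, 439 and 444 and fell to 194, 190.2 and 218 at P56 (log2 fold change -1.21). Col22a1 fell from 148, 109 and 189 at E10.5 to 78.3, 45.0 and 37.3 at P21 (log2 fold change -1.48), which lost its call without P21 replicate 2 and P21 replicate 3 in turn (log2 fold change -1.37 to -1.28).

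The transmembrane chains Col23a1 and Col25a1 were highest around P4. Col25a1, which motor axons need to innervate muscle, held 10.7, 8.30 and 1.53 at E10.5, 36.0 and 30.9 at E13.5, 191, 249 and 155 at P4, 89.5, 87.2 and 106 at P21 and 124, 104 and 162 at P56. It rose from E13.5 to P4 (log2 fold change 2.73 ± 0.37 (SE), adjusted p = 5.3e-06), and the difference between P4 and P56 was not called (-0.61 ± 0.30). Col23a1 fell from 264, 241 and 157 at P4 to 88.0, 103 and 77.9 at P56 (log2 fold change -1.30 ± 0.29 (SE), adjusted p = 0.0018), and lost its call without P4 replicate 1, P4 replicate 2, P56 replicate 1 and P56 replicate 3 in turn (log2 fold change -1.29 to -1.16). Col4a3 and Col4a4 were low throughout, and Col4a3 reached its highest values at P13 (53.0 and 60.4). Col8a1 was at 0.764, 3.46 and 1.53 at E10.5 and 55.0, 58.9 and 55.4 at P56. The 8 collagens that did not pass the filter in vivo were Col4a4, Col8a2, Col9a1, Col10a1, Col13a1, Col17a1, Col20a1 and Col28a1. None of them exceeded 31.7 normalised counts in any in vivo library.

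Vessel content was also put into the model. With the log2 sum of endothelial, mural and fibroblast markers as a covariate, the number of genes called from P4 to P56 went from 2669 to 11 of 15030, the collagens called from 15 to 1, and the median SE of the tested collagens from 0.35 to 1.97. The marker sum differs between these ages in every library, so age and vessel content cannot be told apart in that fit. The gene still called was Col4a5, by its unadjusted p alone (3.91 ± 0.97, adjusted p = 0.79). Estimates stayed positive for Col5a1 (1.704 ± 1.77) and Col5a3 (1.97 ± 2.26), turned negative for the riser Col4a6 (-0.40 ± 2.45), and turned positive for Col4a1, Col4a2 and Col3a1, which fell without the covariate. Between E10.5 and P21, where the marker sums are closer, 18 collagens were called with the covariate and 26 without. Over all genes the calls were 7102 and 9815 in the same order. The 26 were 21 higher and 5 lower (65.3% of all genes, 34.7% upward and 30.6% downward), and each kept its sign with the covariate. The sums differed in make-up. Notch3 held 894, 889 and 666 normalised counts at E10.5 and 5.6, 7.03 and 2.76 at P21. Postn held 154, 159 and 171 at P21. This interval also passes from whole HB9-GFP cells to Chat-Cre nuclei. Vessel content, preparation and age cannot be told apart in this fit either.

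The genes that make and receive collagen were followed by lists. Of 30 genes for the synthesis and crosslinking of collagen, 24 were tested in vivo, and 2 rose and 5 fell from P4 to P56. Serpinh1, the chaperone that binds the collagen helix in the endoplasmic reticulum, fell from 482 ± 22.3 (SD, n = 3) to 4.02 ± 3.54 normalised counts (log2 fold change -6.87 ± 0.33, adjusted p = 1.4e-10), and P4hb, a subunit of prolyl hydroxylase, fell too (-2.15 ± 0.18, adjusted p = 6.7e-08). P4ha2, which encodes a catalytic subunit of the same enzyme (1.53 ± 0.35, adjusted p = 0.0019), and the procollagen protease Adamts2 (1.51 ± 0.28, adjusted p = 0.00035) rose. Serpinh1 was thus near 0 at the age at which Col4a5 and Col5a1 were high.

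Of 12 collagen receptors 10 were tested, with 1 higher and 3 lower at P56 than at P4. Itga1, a collagen-binding integrin chain, fell (-4.72 ± 0.30, adjusted p = 2.9e-09), as did its partner Itgb1 (-2.46 ± 0.19, adjusted p = 3.3e-08), and Itga10 rose (1.75 ± 0.43, adjusted p = 0.0035). Of 16 partners of type IV collagen in basement membranes 14 were tested, 11 fell and none rose. Lama4, the laminin chain of vessels (-7.36 ± 0.43, adjusted p = 1.2e-09), Nid2 (-7.28 ± 0.45, adjusted p = 2.5e-09) and Lamb1 (-6.62 ± 0.35, adjusted p = 3.8e-10) fell most. Vessel markers fell over the same interval, and their part in these changes was not tested.

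In culture, 24 of the 44 collagens passed the filter. Before co-culture most chains were near 0. At DIV0, Col3a1, Col4a6 and Col8a1 had no count, Col1a1 had 1 and Col1a2 3 over both libraries. Set against E13.5 nuclei, 22 collagens were lower at DIV0 and none higher (39.4% of all genes, 15.1% upward and 24.3% downward), with 1.00 ± 0.0283 TPM of Col4a2 at DIV0 and 365 ± 220.0 at E13.5 (SD, n = 2). Col3a1 was at least 744 times lower. The summed endothelial counts were 13.1 and 32.1 at DIV0 and highest of all ages at E13.5, and system and vessel content cannot be told apart here. Col18a1 kept 182 and 119, Col22a1 153 and 136, Col11a1 172 and 128 and Col12a1 136 and 73.4 normalised counts, the highest at DIV0.

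From DIV0 to DIV7, 9 collagens rose and none fell (calls for 11.2% of all genes, 8.36% upward and 2.81% downward, of 12890), with a median log2 fold change of 4.35 over the 24 tested against 0.03 over all genes. Without DIV28 replicate 3 in the fit 11 rose, without DIV0 replicate 1 the number was 5 and without DIV0 replicate 2 it was 4. Col8a1, a network chain of endothelial and corneal matrix, went from no count to 206 and 299.8, at least 119.7-fold higher. Col4a6 went from no count to 73.1 and 105, at least 42.0-fold higher. Col16a1 rose from 5.23 and 0 to 409 and 158 (log2 fold change 6.61 ± 0.93 (SE), adjusted p = 0.00046). Col15a1 went from 1.31 and 1.53 at DIV0 to 116 and 47.2 at DIV7, which was 53.3 (95% exact counting interval 14.4 to 447) times its DIV0 level. Col4a1 rose from 43.1 and 26.0 to 1829 and 320.2 and Col4a2 from 34.0 and 18.4 to 1122 and 193. Of these, Col15a1 and Col4a2 lost their calls without either DIV0 library or DIV7 replicate 1, and Col4a1 without DIV0 replicate 2. The endothelial sum was 13.1 and 32.1 at DIV0 and 131 and 93.1 at DIV7. The mural sum was 106 and 65.75 at DIV0 and 368 and 360 at DIV7. The fibroblast sum was 9.15 and 9.18 at DIV0 and 643 and 204 at DIV7. This step also passes from before co-culture to 7 days on glia. The part of these cell types and of the glia in the rises was not tested.

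The 2 DIV7 libraries differed in fibroblast markers, with sums of 643 and 204. Of the fibroblast list, Dcn (97.5 and 2.55) and Postn (95.65 and 1.28) were among those lower in replicate 2, and Fmod alone was higher (20.6 and 75.3). The mural sum was level (368 and 360), with members such as Acta2 (43.1 and 70.2) higher and Pdgfrb (129 and 33.2) lower. Type I and III chains differed in the direction of the fibroblast sum, and further. Col3a1 held 870.2 and 19.1, Col1a2 591 and 15.3 and Col1a1 715 and 93.1. The ratio of replicate 2 to replicate 1 was 0.454 for Col5a1 and 0.791 for Col5a2. Col4a1 and Col4a2 were 0.175 and 0.172 times as high in replicate 2 as in replicate 1. By contrast the ratio was 0.956 for Col4a5, 1.43 for Col4a6, 1.45 for Col8a1 and 1.19 for Col18a1. Type I and III chains also differed among the 28-day cultures, where Col3a1 held 122, 121 and 1.46 at DIV28 and 421, 481 and 1.26 with TTX, and Col1a1 122, 63.6 and 0 and 388, 348 and 0. Pair 3 had almost none of either chain. Its fibroblast marker sum was not the lowest at DIV28, with 196, 109.5 and 116 in replicates 1, 2 and 3. In replicate 3 that sum was mainly Foxc1 (66.4) and Twist1 (34.3), both higher there than in replicates 1 and 2. Dcn held 55.6, 18.4 and 0 at DIV28 and 122, 141 and 0 with TTX. Postn held 30.1, 15.2 and 6.56 at DIV28.

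From DIV7 to DIV28, 2 collagens rose and 3 fell (7.70% of all genes, 3.62% upward and 4.09% downward), and without DIV28 replicate 3, 2 and 2. Col5a3 held 2.61 and 6.12 at DIV0, 131 and 38.3 at DIV7 and 1328, 1849 and 441 at DIV28. Its groups did not overlap. It rose from DIV7 to DIV28 (log2 fold change 3.89 ± 0.76 (SE), adjusted p = 0.0057) and lost its call without DIV7 replicate 2 (log2 fold change 3.25). Without DIV28 replicate 3, the library with the DIV0 title, the change was 4.28. Replicate 3, which had almost no Col1a1 or Col3a1, had the lowest Col5a3 of the DIV28 libraries, and the part of fibroblast RNA in Col5a3 was not tested. Col6a2 also rose, from 86.3 and 19.1 to 627, 657 and 354 (log2 fold change 3.45 ± 0.70 (SE), adjusted p = 0.0066), a call that was lost without DIV7 replicate 2 and DIV28 replicate 2 in turn (log2 fold change 2.71 to 3.28).

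The chains that fell were Col4a6, Col4a5 and Col11a1. Col4a6 went from 73.1 and 105 to 1.16, 3.23 and 5.83 (log2 fold change -4.59 ± 0.61 (SE), adjusted p = 0.0012), and Col4a5 from 189 and 181 to 18.5, 18.7 and 4.38 (log2 fold change -3.69 ± 0.62 (SE), adjusted p = 0.0027). Both calls were kept in each of the 5 fits that left out 1 library. Col11a1 went from 424 and 237 to 86.9, 121 and 82.4 (-1.74 ± 0.36), a call that was lost without DIV7 replicate 1, DIV28 replicate 1 and DIV28 replicate 3 in turn (log2 fold change -1.68 to -1.25). In vivo, Col4a5, Col4a6 and Col11a1 rose from P4 to P56, and the difference between the systems in these changes was not tested.

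**Figure D4:**
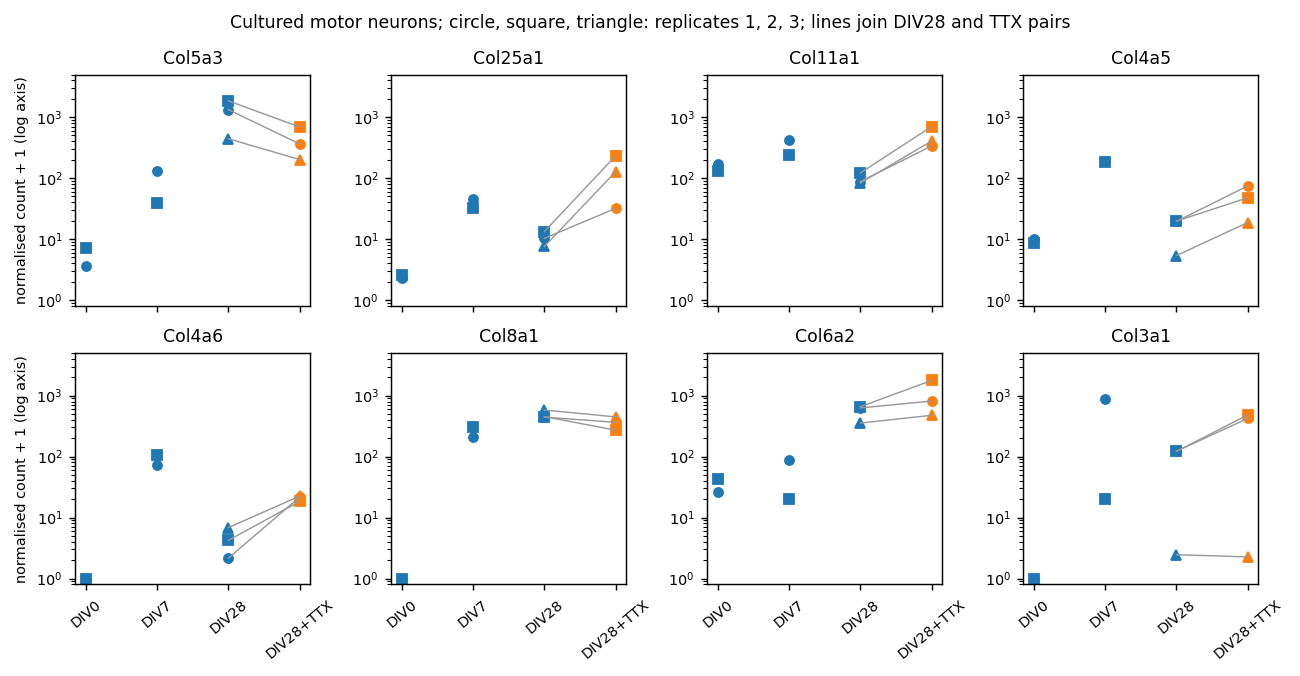
Normalised counts plus 1 (log axis) of 8 collagens in each cultured library, with circles, squares and triangles for replicates 1, 2 and 3. TTX is in orange, and grey lines join DIV28 and TTX cultures of the same replicate number, here called pairs. Col25a1, Col11a1, Col4a5 and Col4a6 are higher with TTX in each of the 3 pairs, Col5a3 is lower in each, and Col3a1 is near 0 in both libraries of pair 3.

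Blocking activity with TTX for 28 days called 2 collagens higher and none lower (0.683% of all genes, 0.279% upward and 0.403% downward). Col25a1 held 9.27, 12.3 and 6.56 without and 30.9, 231 and 126 with TTX, in the order of the pairs (log2 fold change 3.73 ± 0.63 (SE), adjusted p = 0.043). Col11a1 held 86.9, 121 and 82.4 and 336, 701 and 405 (log2 fold change 2.29 ± 0.34 (SE), adjusted p = 0.027). The groups did not overlap for either gene. Both calls were kept in each of the 6 fits that left out 1 library, and with the pairs as a block (3.65 ± 0.60, adjusted p = 0.018, and 2.28 ± 0.32, adjusted p = 0.0098). Without the whole of pair 3, which holds the library with the DIV0 title, Col11a1 was called (2.29) and Col25a1 was not (3.56).

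Col4a5 was called higher with TTX only with the pairs as a block (1.69 ± 0.33, adjusted p = 0.037), at 18.5, 18.7 and 4.38 without and 73.4, 46.7 and 17.7 with it. Col5a3 held 1328, 1849 and 441 without and 363, 689 and 201 with TTX. It was lower in each of the 3 pairs, the groups overlapped, and the difference was not called (log2 fold change -1.54 ± 0.57 (SE), adjusted p = 0.45, and -1.47 ± 0.36, adjusted p = 0.09 with the block). With the vessel and fibroblast sum as a covariate it was called by its unadjusted p (-2.19 ± 0.43, adjusted p = 0.055). The fibroblast sums were 196, 109.5 and 116 without and 415, 445 and 144 with TTX. Of the receptors, Adgrg1, which binds collagen III, was lower with TTX (log2 fold change -1.47 ± 0.28, adjusted p = 0.063), and no synthesis gene or basement membrane partner was called.

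At 28 days the cultures differed from P21 nuclei in 4 collagens that were higher and 14 that were lower (26.3% of all genes, 13.3% upward and 13.1% downward, of 15521). Col8a1, with 32.2, 35.1 and 38.7 at P21 and 443, 452 and 579 at DIV28, led those that were higher (log2 fold change 3.85 ± 0.23 (SE), adjusted p = 6.1e-11). Col6a2 (3.55 ± 0.43), Col5a3 (3.11 ± 0.45, adjusted p = 7.5e-06) and Col6a1 (2.72 ± 0.35), at 1174, 1266 and 533, were the others. Without DIV28 replicate 3 the numbers were 5 and 12. On the TPM scale Col5a3 stood at 12.1 ± 8.33 at DIV28 and 2.82 ± 1.31 at P21 (SD, n = 3).

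Chains with a rise called after E13.5 in vivo were among those lower in culture. Col4a5 (-4.33 ± 0.28), Col19a1 (-4.11 ± 0.30, at 19.7, 12.9 and 14.6), Col5a1 (-3.73 ± 0.37) and Col11a1 (-3.22 ± 0.25) were lower at DIV28, each in all 6 fits that left out 1 library. Col4a3 had 1 count over the 3 DIV28 libraries and was 245 (95% exact counting interval 43.0 to 9790.5) times lower. Col25a1, Col2a1, Col6a6, Col4a6, Col6a3, Col26a1, Col9a2, Col24a1 and Col23a1 were lower as well, with log2 fold changes from -3.19 to -1.73. Col9a2 lost its call in 5 of 6 fits that left out 1 library, Col23a1 and Col26a1 in 3 each and Col4a6 in 2. The astrocytes of the co-culture were of another tissue and age than those of the cord, and their RNA cannot be told apart from that of motor neurons in these libraries. The astrocyte marker sum was 1641 to 2040.2 at P21, 917 and 1011 at DIV0, 949 and 1679 at DIV7, 398, 459.6 and 870.1 at DIV28 and 296, 428 and 835 with TTX, and its part in the culture differences was not tested.

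Open chromatin was read as the presence of a peak summit within 500 bp of the outermost annotated start of a gene (GENCODE, mm10) in both libraries of a group. Collagens had such a peak at 23 of 44 starts at E10.5, 24 at E13.5, 18 at P4, 21 at P13, 20 at P21, 15 at P56 and 19 at 2 years, that is 34.1% to 54.5% of them. Over all 21938 protein-coding genes the share was 55.2% to 58.4% at the same ages. In culture the number was 22 at DIV0, 12 at DIV7, 16 at DIV28 and 10 with TTX, and the share over all protein-coding genes was 56.3%, 53.6%, 56.6% and 56.4% in the same order. With a peak in at least 1 library as the rule, the last 2 numbers were 22 and 23, so the lower number with TTX depends on the rule. The depth of these libraries is unknown, and a missing peak in a shallow library does not show closed chromatin.

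**Figure D5:**
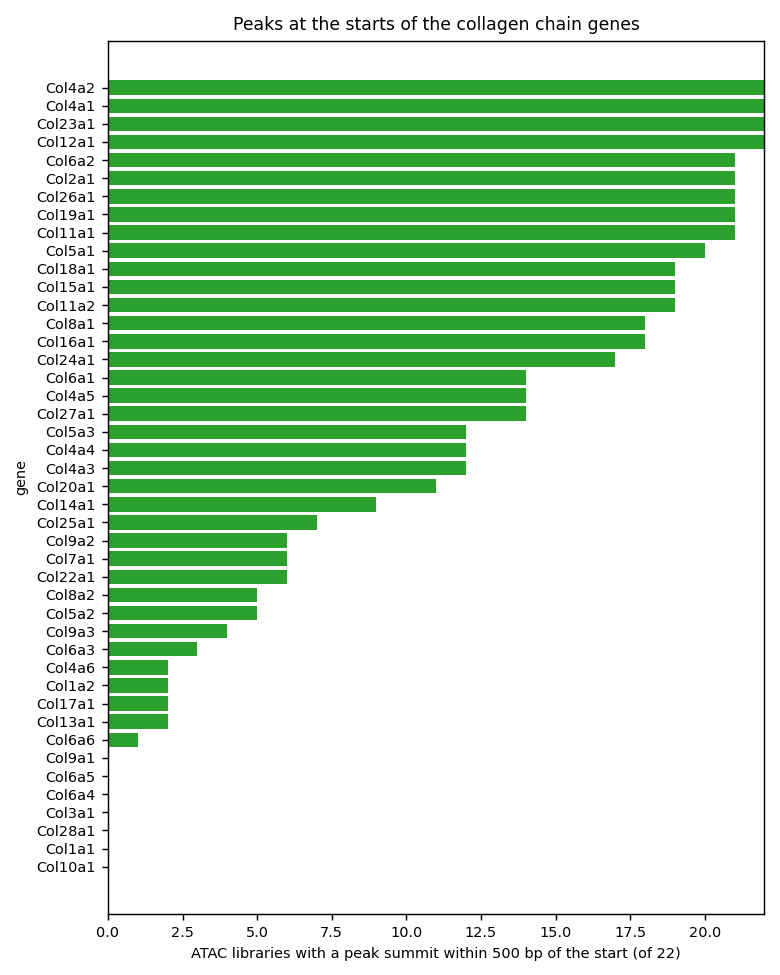
Bars give, for each of the 44 collagens, the number of ATAC libraries (of 22) with a peak summit within 500 bp of the gene's outermost start. Col4a1, Col4a2, Col12a1 and Col23a1 have a peak in 22 libraries, and Col1a1, Col3a1, Col6a4, Col6a5, Col9a1, Col10a1 and Col28a1 in none.

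The starts of Col12a1, Col23a1, Col4a1 and Col4a2 had a peak in all 22 libraries, and those of Col2a1, Col6a2, Col11a1, Col19a1 and Col26a1 in 21. Col5a1 had a peak in 20. Of the chains with a rise called after E13.5, Col5a1, Col11a1 and Col19a1 thus had a peak in every in vivo library, before and after the rise of their RNA. Col4a5 had one in 14 libraries and Col24a1 in 17, and Col4a6 in the 2 E10.5 libraries alone. No library had a peak at the starts of Col1a1, Col3a1, Col6a4, Col6a5, Col9a1, Col10a1 and Col28a1. Among these, Col3a1 held 1863 and 1281 normalised counts of RNA at E13.5. That RNA came from pulled-down nuclei and the peaks from sorted nuclei, which the study reports as purer at that age. RNA and peaks of Col3a1 may thus stem from different mixtures of cells. Col1a2 had a peak at E10.5 only. At Col4a1 and Col4a2 the fold enrichment of the shared peak was 2.79 and 4.55 at E10.5, 14.85 and 10.79 at E13.5 and 12.79 and 11.47 at P56, a ratio to background within each library that is not comparable between them as a level.

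The annotated start matters for some chains. RefSeq places the start of Col25a1 49344 bp from the outermost GENCODE start, and a peak summit lay in that RefSeq window in all 22 libraries, against 7 at the outer start. For Col27a1, 1408 bp apart, the numbers were 19 and 14. RefSeq windows were found for 35 of the 44 collagens. The 7 windows of chains with a start peak in at least 20 libraries had a median of 24 CpG dinucleotides, none with TATAAA and 6 with a GC box. The 11 windows of chains with a peak in at most 2 libraries had a median of 5 CpG dinucleotides, 4 with TATAAA and 5 with a GC box.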

How the data were processed

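RNA was measured in 28 libraries and open chromatin in 22. Per the labels and the study's methods, the authors trimmed reads (cutadapt 0.6.2), aligned RNA to mm10 with STAR 2.5.2b and deposited expected counts and TPM per gene from RSEM 1.3.0 with default settings, for which no strand option is stated. ATAC reads were aligned with BWA 0.7.1.7, and the authors called peaks in each library with MACS2 2.2.7.1, whose deposited files give each peak a signal value (fold enrichment) and −log10 p- and q-values. The position of each summit, its fold enrichment and its q-value were used. The depth of the ATAC libraries is not given in the sources used here.

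Expected counts were rounded to whole numbers. Genes that reached a CPM of 5 in all replicates of any group were tested in edgeR 4.0.16 (R 4.3.3, TMM factors, quasi-likelihood), with 1 fit for the 18 libraries in vivo, 1 for the 10 of the cultures and 1, for comparisons between systems, for the 25 without TTX. A gene was called at an unadjusted p under 0.001 and a fold of at least 2, and adjusted p-values (Benjamini-Hochberg) run over all genes of a fit. Single normalised counts use median-of-ratios factors over all 28 libraries. The fits were tested on simulated counts. A group without counts was set to a floor of 3 counts, and ratios from 1 to 3 counts carry exact intervals, all for counting error only. Totals of 2704682 to 21823500 counts limit low genes in the smaller libraries.

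DIV28 and TTX libraries were paired here by replicate number. Neither their titles nor the study's methods state that equal numbers are paired cultures. Over 9796 genes the deviations of paired libraries correlated at 0.68, 0.62 and 0.77, and libraries of unequal number were not compared. Other replicates share no pairing. Replicates are separate pools or cultures, and p-values measure the spread between them. Values are given in every library for Col5a3 and for up to 5 called collagens with the largest change in each direction of a comparison, and others were named after their values were seen. The members, marker lists and partner lists were chosen with earlier results of these data known. Alternatives were DESeq2 1.42.0, other scaling, no filter, an adjusted p limit of 0.05, a replicate block, a covariate of summed vessel and fibroblast markers, only the compared groups, and each library left out. The Schwann cell, microglia, astrocyte, oligodendrocyte and erythroid lists were summed in the same way. At E13.5 the erythroid sum was 16299 and 18095 normalised counts, the astrocyte sum 1115 and 1328 and the microglia sum 181 and 208.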

Additional observations from a re-analysis of the deposited data

How the results depend on the processing

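With vessel and fibroblast markers as a covariate, the number of collagens called was 2 between E10.5 and E13.5, 12 between E13.5 and P4, 0 between P4 and P13, 0 between P13 and P21, 0 between P56 and 2 years, 1 between P4 and P56, 2 between DIV0 and DIV7 and 1 between E13.5 and DIV0. Calls over all genes fell too. In the same order they were 6621, 6420, 2006, 1097, 103, 2669, 1440 and 6114 without the covariate. With it they were 479, 3795, 47, 168, 77, 11, 594 and 63. Log2 fold changes turned their sign in that fit between E10.5 and E13.5 (-2.13 for Col18a1, -1.32 for Col1a2, 1.43 for Col22a1 and 0.76 for Col4a6), between P4 and P13 (0.56 for Col18a1 and 0.98 for Col3a1), between P4 and P56 (0.72 for Col3a1, 0.62 for Col4a1, 0.40 for Col4a2 and -0.40 for Col4a6) and between E13.5 and DIV0 (1.57 for Col11a1, 0.95 for Col18a1, 9.82 for Col1a1, 12.32 for Col1a2, 8.07 for Col3a1 and 1.85 for Col6a1). The marker sum follows age there, and the cause was not tested. Without the filter on low counts, which tests more genes, 8 were called between P13 and P21, 1 between P21 and P56, 6 between P56 and 2 years, 21 between DIV0 and DIV7, 15 between DIV7 and DIV28 and 8 with TTX. With only the compared groups in the fit, and so fewer samples, the counts were 11 between E10.5 and E13.5, 1 between P21 and P56, 4 between P56 and 2 years and 15 between DIV0 and DIV7. At an adjusted p limit of 0.05 they were 16 between DIV0 and DIV7 and 0 between P56 and 2 years, where DESeq2 called 2. Leaving out 1 library gave 16 to 22 between E13.5 and P4, 5 to 10 between P4 and P13, 2 to 5 between P13 and P21, 0 to 1 between P56 and 2 years, 4 to 11 between DIV0 and DIV7 and 3 to 4 between DIV7 and DIV28. Without pair 3 of the TTX experiment, chosen after seeing the data, 1 was called. Without DIV28 replicate 3 in the fit, chosen likewise, 11 were called between DIV0 and DIV7. Counts without E13.5 libraries in the fit, also chosen after seeing the data, were 9 between P4 and P13, 5 between P13 and P21, 0 between P21 and P56, 1 between P56 and 2 years, 26 between E10.5 and P21 and 14 between P4 and P56. Of these alternatives, calls over all genes are given for the covariate fit alone, so the other counts have no background beside them.

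With the replicate block, 3 collagens were called with TTX and 2 between P56 and 2 years, and the count in each other comparison was within 1.5 times that without it. Outside the TTX pairs, which were themselves matched by replicate number, these samples were taken to share only a number. Of the named results, 271 values under an alternative kept their direction and lost their call, and 1701 stayed on their side of the limit with the same direction. The number of collagen starts with a peak was 7 at DIV7 at a −log10 q of at least 2 and 28 with a peak in at least 1 library. With TTX it was 17 within 1000 bp and 23 with a peak in at least 1 library. With 2 or 3 libraries in a group, changes of low chains such as Col4a3 or Col6a5 are known only within wide intervals.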

Other observations

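Among the collagens not described above, Col7a1, the anchoring fibril chain of skin, rose from E10.5 to P21 (log2 fold change 1.65 ± 0.39 (SE), adjusted p = 0.00085), with 14.5, 27.0 and 10.7 normalised counts at E10.5 and 76.9, 54.8 and 33.1 at P21. Every P21 library was above every E10.5 library. With only these 2 groups in the fit the call was lost, as it was in 4 of 6 fits that left out 1 library. Col11a2, the partner of Col11a1 in cartilage fibrils, rose from 11.1 and 25.7 at E13.5 to 99.8, 110.2 and 39.9 at P4 (log2 fold change 2.23 ± 0.45 (SE), adjusted p = 0.00028). In culture it held 52.3 and 48.9 at DIV0 and 57.9, 107 and 47.4 at DIV28.

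Col13a1, a transmembrane chain that muscle uses at the neuromuscular junction, held 13.8 and 8.15 normalised counts at E13.5, 8.25, 1.34 and 1.32 at P56 and 1.16, 1.29 and 0 at DIV28 and was not tested. The transmembrane chain Col17a1, known from the anchorage of epidermis, held 0, 4.02 and 2.64 at P56. The FACIT chain Col20a1 held 4.58, 2.77 and 5.34 at E10.5 and 27.5, 18.8 and 31.7 at P56.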
